A study of Mus musculus with 6 samples.

Results

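Apoptosis and p53 pathway genes were examined in the mouse macrophage line Raw264.7 (genotype WT in the labels), grown on 2 titanium surfaces. The control surface, TH, carried titanate nanowires made by alkaline heat treatment, and the other, THCaP, carried a coating of calcium phosphate nanowires. In both groups cells sat on the surface for 12 h, were given lipopolysaccharide (LPS, a bacterial product that activates macrophages) at 1 µg/mL for 2 h, and were collected after another 1 d. There is no group without LPS, so a difference between surfaces cannot be split into a part that needs LPS and a part that does not. Each surface had 3 RNA-seq libraries, and the labels do not say whether these came from separate cultures, so p-values cover only the spread among these 6 samples, which may be technical. The genes were chosen by symbol from a fixed list of 42, and all 42 were found among the 16171 genes of the count table. Of these, 41 had enough counts to be tested. Perp, a p53 target of the plasma membrane, had 9 counts in all on TH and 7 on THCaP and was not tested.

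The transcription factor p53 is held low by the ubiquitin ligase Mdm2 and its partner Mdm4, and when released it switches on genes for cell cycle arrest, repair and death. Death through mitochondria is set by the BCL2 family: BH3-only proteins either free or trigger the pore formers Bax and Bak1, pro-survival members hold both in check, and an open pore releases factors that activate Apaf1 and caspase-9. Death receptors such as the TNF receptor use Tradd, Fadd, Ripk1 and caspase-8 instead, with c-FLIP (Cflar) as the brake and Ripk3 and Mlkl as the route to necroptosis. In macrophages given LPS, NF-κB is known to induce several of the brakes, among them Birc3, Cflar and the Bcl2a1 genes.

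Library totals ran from 28000099 to 30317108 counts, so a count of 0 allows at most 0.107 CPM (counts scaled to library size), which covers counting error only. Of 11480 tested genes, edgeR called 23.6% at an adjusted p under 0.05, 11.6% higher and 12.0% lower on THCaP. These 2709 calls were 49.2% higher with TMM scaling and 64.2% higher when libraries were scaled by their totals alone, which moved the median log2 fold change of all tested genes from 0.0064 to 0.0588. On the first principal component (60.5% of the variance) THCaP replicate 3 lay nearest to TH, and on the second (13.7%) TH replicate 1 stood apart. All 9 macrophage markers were tested, with summed levels of 2890 to 3400 CPM on TH against 3160 to 3350 CPM on THCaP. Within that list the lysozyme gene Lyz2 rose (0.63, SE 0.16, edgeR adjusted p = 0.0223). Csf1r had all THCaP libraries above TH (0.32, SE 0.10, edgeR adjusted p = 0.0504), and Cd14 (−0.35), Cd68 (−0.23) and Ptprc (−0.19) had all below, none of them called. Fibroblast, epithelial, lymphoid and neutrophil markers summed to at most 0.713 CPM in any library, and Thy1 and S100a8 were at 0 in all. The endothelial list summed to 4.43 to 5.57 CPM on TH against 2.31 to 4.14 CPM on THCaP. Its one tested gene was Pecam1, which macrophages also carry. The part of these shifts in the results was not tested.

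Of the 41 tested genes, 11 fell and 5 rose on THCaP (edgeR quasi-likelihood test with Benjamini-Hochberg adjustment over all tested genes). The share that fell was 26.8%, against 12.0% of all tested genes, and the share that rose was 12.2%, against 11.6%. The genes were chosen with earlier results of these data known, so these shares, and those by role below, are a description only. The median log2 fold change was −0.01, beside 0.0064 for all tested genes, with 20 values above 0 and 21 below. In 15 genes (36.6%) all THCaP libraries lay below all TH libraries, and in 7 (17.1%) all lay above. Over all tested genes these shares were 21.3% and 22.1%, or 43.4% without overlap in either direction. The genes that fell were Cflar, Birc3, Bbc3, Birc2, Mcl1, Pmaip1, Bcl2l11, Cdkn1a, Bcl10, Bcl2a1b and Mdm2. Those that rose were Pidd1, Fadd, Ripk1, Diablo and Bcl2. Those that fell held both brakes on death and inducers of death. Among those that rose, Bcl2 was the only brake, and its call was lost without any one of the 6 libraries.

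**Figure D1:**
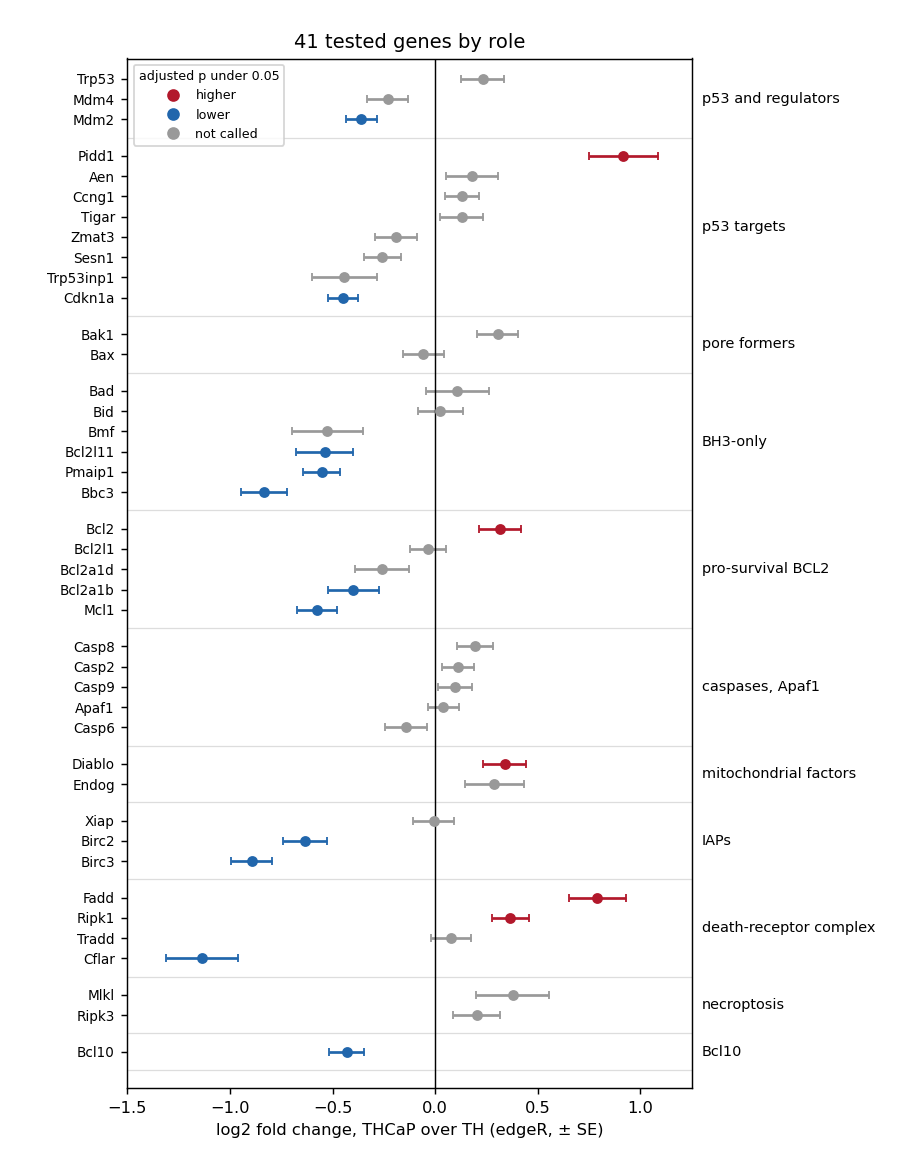
Log2 fold change (THCaP over TH, x axis) of the 41 tested genes, grouped by role, with bars for the standard error of the edgeR fit. Blue marks the 11 genes that fell, red the 5 that rose and grey those not called. The values run from −1.14 for Cflar to 0.92 for Pidd1, and none of the 5 caspase and Apaf1 genes was called.

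Among p53 and its regulators, Mdm2 fell and the other two were not called. Trp53 itself, which encodes p53, stood at 169, 159 and 150.2 CPM in TH replicates 1 to 3 against 186, 212 and 163 CPM in THCaP replicates 1 to 3. The groups overlapped (log2 fold change 0.23, SE 0.10, edgeR adjusted p = 0.131). Without THCaP replicate 3, whose value lay inside the TH range, Trp53 was called higher (0.32, edgeR adjusted p = 0.0193). That was so in 2 of 16 alternatives, both without that library. Leaving out other single libraries gave edgeR adjusted p up to 0.36. Mdm2, the ligase that marks p53 for degradation and is itself a p53 target, had 105, 111 and 114 CPM on TH against 85.1, 82.2 and 89.4 CPM on THCaP. All THCaP libraries were below all TH libraries, and Mdm2 fell 1.283-fold (−0.36, SE 0.08, edgeR adjusted p = 0.0128). That call was lost without TH replicate 2 (edgeR adjusted p = 0.0582), TH replicate 3 (0.069) or THCaP replicate 1 (0.0705). Mdm4, which blocks the p53 activation domain, averaged 350.0 ± 30.1 CPM on TH against 298 ± 32.9 CPM on THCaP (mean ± SD, n = 3 each), and its libraries overlapped (−0.23, SE 0.10, edgeR adjusted p = 0.125). Without THCaP replicate 3 it too was called (−0.31, edgeR adjusted p = 0.0309). The 2 of 16 alternatives that called Mdm4 both lacked that library, and other single libraries left out gave edgeR adjusted p up to 0.322.

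Known p53 targets stand under several roles here: Mdm2 above and Bbc3 and Pmaip1 among the BH3-only genes all fell, and Bax was not called. The 9 targets with no other role in the list did not move together. Of the 8 tested, 1 fell, 1 rose and 6 were not called, with a median log2 fold change of −0.03. The shares that fell and rose were 12.5% each, close to the 12.0% and 11.6% of all tested genes. Cdkn1a, which encodes the cell cycle inhibitor p21, had 207, 199 and 193 CPM on TH against 144, 145 and 151 CPM on THCaP. The groups were apart and the 3 THCaP libraries were close to each other. Cdkn1a fell 1.36-fold (−0.45, SE 0.07, edgeR adjusted p = 0.006), and the call held without each library in turn. On GRCm38 the gene lies on chromosome 17 at 29090976 to 29100727 and is protein coding, and 7.68% of its exon bases overlap a gene on the other strand. Pidd1, the scaffold that activates caspase-2, went the other way, with 10.9, 9.23 and 8.78 CPM on TH against 18.8, 21.7 and 14.0 CPM on THCaP. Every THCaP library was above every TH library, with THCaP replicate 3 the lowest of the 3. Pidd1 rose 1.89-fold (0.92, SE 0.17, edgeR adjusted p = 0.00798), also without each library in turn. It lies on chromosome 7 at 141438113 to 141444025.

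The 6 other tested targets had log2 fold changes between −0.44 and 0.18. In Sesn1, a stress-induced inhibitor of mTORC1 signalling, and in Trp53inp1, a p53-induced nuclear protein, all THCaP libraries were below all TH libraries, but neither was called (−0.26, SE 0.09, edgeR adjusted p = 0.062, and −0.44, SE 0.16, edgeR adjusted p = 0.0657). Both were called without THCaP replicate 3 (edgeR adjusted p = 0.0229 and 0.00888) and by DESeq2 (adjusted p = 0.043 and 0.0363). Each was called in 3 of 16 alternatives, and other single libraries left out gave edgeR adjusted p up to 0.198 and 0.203. The libraries of the surfaces overlapped in Ccng1, the p53-induced cyclin G1, in Tigar, a fructose bisphosphatase, in Zmat3, an RNA-binding protein, and in Aen, a nuclease (log2 fold changes 0.13, 0.13, −0.19 and 0.18).

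Promoter windows of 300 bases, from 250 before to 50 after a start, were available for 37 of the 42 genes (53 windows, RefSeq, GRCm38.p6). A p53 half-site, searched on both strands by its consensus, was present in 10 of 53 windows (18.9%), against 8.36% of all 32851 windows of this length and 6.71% of the 11783 windows of tested genes. These 10 windows belong to 9 genes, since 2 overlapping windows of Aen hold the same match, of which Birc2, Cdkn1a and Mdm2 fell and Aen, Bax, Bmf, Ccng1, Sesn1 and Trp53 were not called. Among p53 targets that fell, the windows of Cdkn1a and Mdm2 held a match, those of Bbc3 held none, and no match was found for Pmaip1 either. The windows of Cdkn1a and Mdm2 are shown with that of Ccng1, a target with a match that was not called. Capitals mark the match, and a match is a description of letters, not of binding. Cdkn1a (chr17:29090729-29091028, plus strand, the upstream of its 2 starts) held 2 matches, at positions −73 and −51 from the start with 12 bases between them. The bases right after the match at −51, tgacatgttc, differ from the consensus only at their first base, so this exact search left them unmarked. In Mdm2 (chr10:117710709-117711008, minus strand) the match began at −186, and in Ccng1 (chr11:40755237-40755536, minus strand) at −185.
Cdkn1a: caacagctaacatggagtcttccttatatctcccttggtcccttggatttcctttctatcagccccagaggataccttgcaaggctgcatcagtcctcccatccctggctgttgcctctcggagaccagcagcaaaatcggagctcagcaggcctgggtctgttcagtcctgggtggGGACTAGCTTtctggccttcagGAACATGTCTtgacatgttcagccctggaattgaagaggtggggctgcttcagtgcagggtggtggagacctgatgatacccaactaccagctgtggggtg
Mdm2: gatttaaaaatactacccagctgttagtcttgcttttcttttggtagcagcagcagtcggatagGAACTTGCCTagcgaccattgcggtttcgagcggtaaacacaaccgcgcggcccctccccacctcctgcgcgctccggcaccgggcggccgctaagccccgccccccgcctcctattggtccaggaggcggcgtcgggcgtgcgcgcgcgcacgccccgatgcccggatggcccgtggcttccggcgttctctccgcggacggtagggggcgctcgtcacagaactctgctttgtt
Ccng1: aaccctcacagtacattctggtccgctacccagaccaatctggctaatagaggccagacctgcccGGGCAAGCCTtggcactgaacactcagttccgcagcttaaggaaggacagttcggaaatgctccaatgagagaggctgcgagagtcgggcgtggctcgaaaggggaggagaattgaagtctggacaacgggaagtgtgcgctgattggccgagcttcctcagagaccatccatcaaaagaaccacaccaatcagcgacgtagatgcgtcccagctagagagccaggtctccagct

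**Figure D2:**
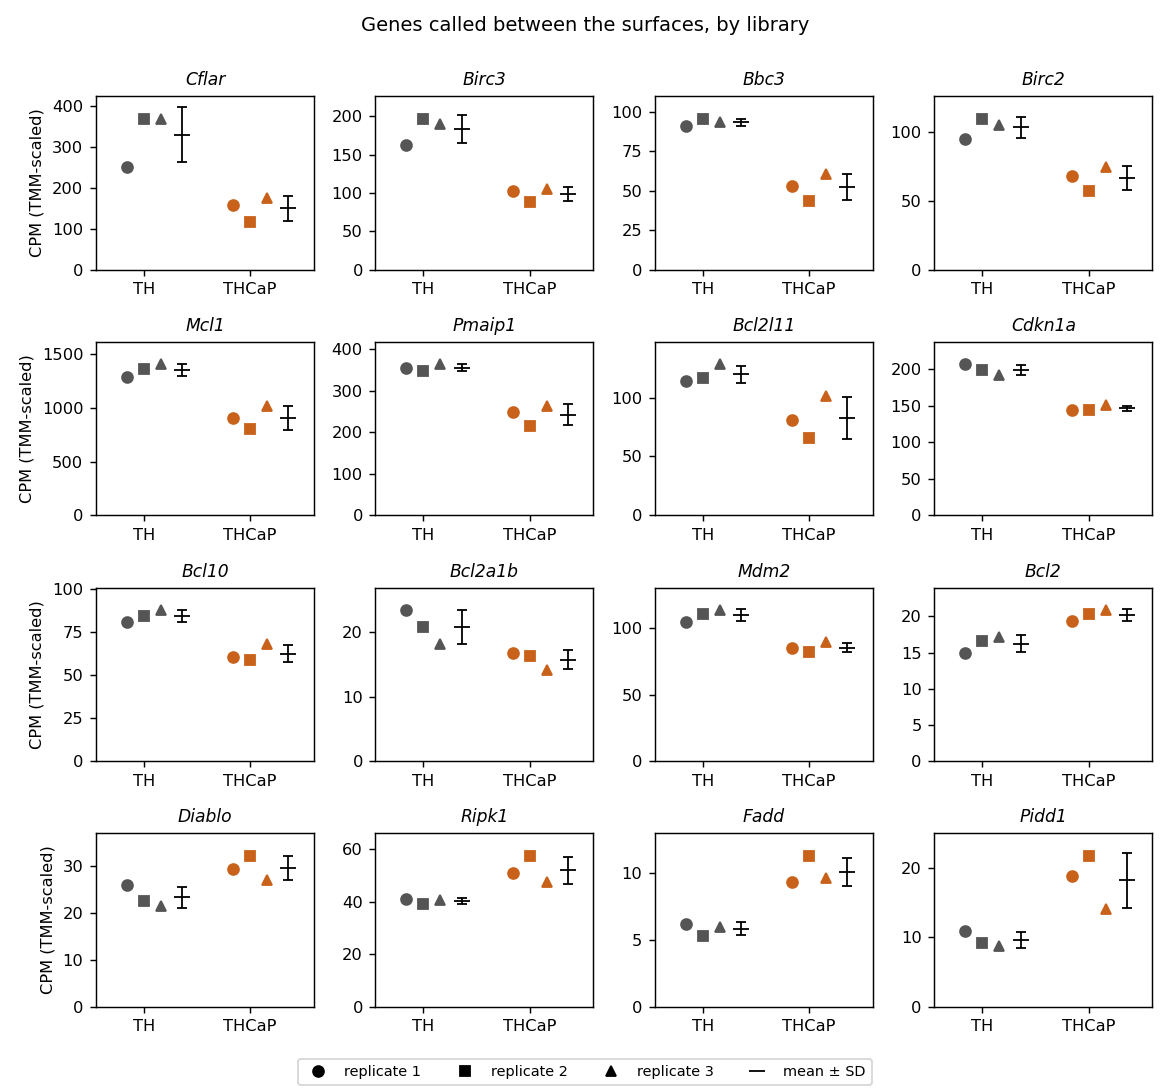
CPM with TMM scaling (y axis, from 0) of the 16 called genes in each library of TH (grey) and THCaP (orange), marker shape giving the replicate number and the bar the mean ± SD of 3 libraries. In each panel the 3 THCaP libraries lie all below or all above the 3 TH libraries, and THCaP replicate 3 is the THCaP library nearest to the TH mean in 13 of 16 panels. Choosing genes by their call favours such separation, and 43.4% of all tested genes had no overlap.

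Of 6 BH3-only genes, the sensors that start mitochondrial death, 3 fell (50%, against 12.0% of all tested genes) and 3 were not called. The median log2 fold change of the 6 was −0.53. Bbc3, which encodes PUMA and is a p53 target, stood at 91.0, 95.6 and 93.7 CPM on TH against 52.98, 43.7 and 60.4 CPM on THCaP. The TH libraries lay within a narrow band and all THCaP libraries were well below it. Bbc3 fell 1.78-fold (−0.84, SE 0.11, edgeR adjusted p = 0.00344). It lies on chromosome 7 at 16308393 to 16318205. Pmaip1, which encodes NOXA, the partner that neutralises Mcl1, had 356, 348 and 363 CPM on TH against 249, 215 and 264 CPM on THCaP. The groups were apart, and Pmaip1 fell 1.47-fold (−0.55, SE 0.09, edgeR adjusted p = 0.00599). The calls of Bbc3 and Pmaip1 held without each library in turn.

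Bcl2l11, which encodes BIM, had 114, 117 and 128 CPM on TH against 80.7, 65.6 and 101 CPM on THCaP. All THCaP libraries were lower, with THCaP replicate 3 nearest to TH. Bcl2l11 fell 1.45-fold (−0.54, SE 0.14, edgeR adjusted p = 0.0244), a call lost without TH replicate 2 (edgeR adjusted p = 0.0715), TH replicate 3 (0.0912) or THCaP replicate 1 (0.0817). Bmf, a BH3-only protein linked to the cytoskeleton, also had no overlap, at 81.7 ± 3.71 CPM on TH against 56.8 ± 16.2 CPM on THCaP (n = 3 each), but was not called (−0.52, SE 0.17, edgeR adjusted p = 0.0508). Without THCaP replicate 3, at 73.4 CPM the highest of its group, Bmf was called lower (−0.75, edgeR adjusted p = 0.00124), as in 5 of 16 alternatives in all, DESeq2 among them (adjusted p = 0.00922). Bad, which binds Bcl2 and Bcl2l1, and Bid, which caspase-8 cleaves, had overlapping libraries (0.11, SE 0.15, and 0.03, SE 0.11). Their sign turned without THCaP replicate 2 (−0.06 and −0.07).

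The pore formers were not called. Bax had 166, 135 and 139 CPM on TH against 138, 152 and 133 CPM on THCaP, with full overlap (−0.06, SE 0.10, edgeR adjusted p = 0.694). TH replicate 1 was the highest of the 6, and without it the value was 0.04. Bak1 had 109, 107 and 96.9 CPM on TH against 126, 146 and 115 CPM on THCaP. Its groups did not overlap, and it missed the threshold (0.30, SE 0.10, edgeR adjusted p = 0.0541). Bak1 was called higher in 8 of 16 alternatives, among them without THCaP replicate 3 (edgeR adjusted p = 0.0109), with library totals (0.0303) and by DESeq2 (adjusted p = 0.027). Of its exon bases, 25.5% overlap Ggnbp1 on the other strand, and the strand setting of the counting is not given in the sources used here.

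Of the 5 pro-survival BCL2 genes, 2 fell, 1 rose and 2 were not called (median log2 fold change −0.26). The shares that fell and rose were 40% and 20%, against 12.0% and 11.6% of all tested genes. Mcl1, a short-lived guard of mitochondria, had 1289.8, 1368 and 1406 CPM on TH against 906, 801 and 1022 CPM on THCaP. Every THCaP library was lower. Mcl1 fell 1.49-fold (−0.57, SE 0.10, edgeR adjusted p = 0.00675), also without each library in turn. It lies on chromosome 3 at 95658788 to 95663176. Bcl2l1, which encodes BCL-XL, had 331, 273 and 290.3 CPM on TH against 291, 291 and 290.0 CPM on THCaP. The 3 THCaP values were nearly equal and lay inside the TH range (−0.04, SE 0.09, edgeR adjusted p = 0.79). The sign was positive with library totals (0.02) or without TH replicate 1 (0.04).

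Bcl2, the founding member, was low, at 14.9, 16.5 and 17.2 CPM on TH against 19.3, 20.4 and 20.9 CPM on THCaP. The groups did not overlap, and Bcl2 rose 1.24-fold (0.32, SE 0.10, edgeR adjusted p = 0.0476). This call lay next to the threshold and was lost when any one of the 6 libraries was left out (edgeR adjusted p from 0.0687 to 0.126). Bcl2a1b, one of the A1 genes, had 23.4, 20.8 and 18.1 CPM on TH against 16.8, 16.3 and 14.1 CPM on THCaP. It fell 1.32-fold (−0.40, SE 0.12, edgeR adjusted p = 0.0432), and this call too was lost without any one library (edgeR adjusted p from 0.0572 to 0.117) and with library totals (0.0665). Its copy Bcl2a1d overlapped between groups, at 22.0 ± 2.04 CPM on TH against 18.4 ± 2.87 CPM on THCaP (n = 3 each; −0.26, SE 0.13, edgeR adjusted p = 0.168), and was called without THCaP replicate 2 (0.0424). The Bcl2a1b and Bcl2a1d transcripts are identical at 810 of 817 aligned bases (99.1%), with an identical run of 217 bases, so reads may be split between them or lost. Bcl2a1b also shares 49.1% of its exon bases with another annotated gene on its strand. When Bcl2a1a, Bcl2a1b and Bcl2a1d were summed as 1 gene, a choice made after seeing the data, the level was 43.3 CPM on TH against 34.6 CPM on THCaP and was not called (−0.32, SE 0.11, edgeR adjusted p = 0.0614).

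Per length, the 13 listed BCL2 family genes were led by Bax, Mcl1 and Pmaip1. Their mean FPKM (a level scaled by gene length and depth) was 155, 152 and 132 on TH and 155, 106 and 93.0 on THCaP. FPKM are scaled by library totals only. The pro-survival genes summed to 267, 259 and 258 FPKM on TH and to 206, 199 and 216 FPKM on THCaP. The BH3-only genes summed to 254, 241 and 249 FPKM on TH and to 193, 183 and 202 FPKM on THCaP. Both sums were lower in every THCaP library, by a ratio of group means of 1.26 and 1.29. Within a library, where scale factors cancel, the ratio of the pro-survival to the BH3-only sum was 1.05, 1.08 and 1.04 on TH and 1.07, 1.09 and 1.07 on THCaP, so these ratios overlapped. Mcl1 made up 54.6% to 60.8% of the pro-survival sum on TH and 46.9% to 55.2% on THCaP. Relative to the pore former Bak1, Mcl1 stood at 2.71, 2.93 and 3.33 on TH and at 1.65, 1.26 and 2.04 on THCaP. Relative to Bax, Bcl2l1 stood at 0.342 ± 0.0091 on TH and 0.348 ± 0.0235 on THCaP (n = 3 each). The sums hold listed genes only, so the sums and their ratio depend on the list. Left out are the BCL2-interacting Bnip3 and Bnip3l of the further list, neither of them called. They stood at 394.5 and 70.1 FPKM on TH and at 390.7 and 65.5 FPKM on THCaP. These sums and ratios were formed after the values were seen and carry no test, and they concern transcripts, not proteins.

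**Figure D3:**
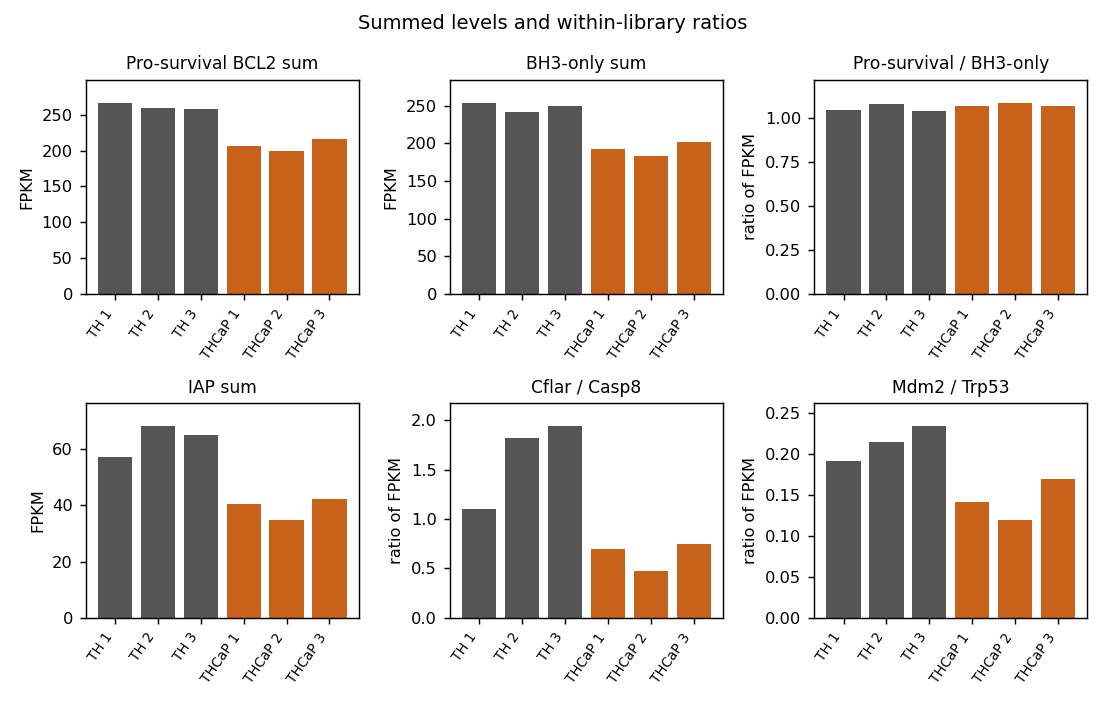
Summed FPKM and ratios of FPKM (y axes, from 0) in each of the 6 libraries, TH in grey and THCaP in orange. The pro-survival and BH3-only sums are lower in all 3 THCaP libraries while their ratio stays between 1.04 and 1.09. The IAP sum, Cflar over Casp8 and Mdm2 over Trp53 are lower in all 3 THCaP libraries. These hold genes already called lower (Birc2, Birc3, Cflar and Mdm2), so they add no support to those calls. The sums hold listed genes only and depend on the list. All sums and ratios shown were formed after the values were seen and carry no test.

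Caspases and Apaf1 gave no call: 0 of 5 rose or fell (edgeR), 0 had an unadjusted p under 0.05, and DESeq2 called 0. Log2 fold changes ran from −0.14 to 0.20. Casp8, the initiator caspase of death receptors, had 87.5, 77.6 and 72.8 CPM on TH against 87.2, 95.1 and 90.1 CPM on THCaP. TH replicate 1 reached into the THCaP range (0.20, SE 0.09, edgeR adjusted p = 0.133), and without it Casp8 was called higher (0.27, edgeR adjusted p = 0.0426). That was so in 2 of 16 alternatives, both without that library. Other single libraries left out gave edgeR adjusted p up to 0.403. Casp9, the initiator caspase of the mitochondrial route, had 31.9, 31.0 and 32.9 CPM on TH against 35.0, 34.6 and 32.8 CPM on THCaP (log2 fold change 0.10, SE 0.08, edgeR adjusted p = 0.406). Apaf1, the scaffold that gathers caspase-9, had 57.8, 63.1 and 60.8 CPM on TH against 62.5, 61.5 and 62.8 CPM on THCaP (log2 fold change 0.04, SE 0.07, edgeR adjusted p = 0.721). Both overlapped between surfaces. The standard errors of this group were 0.07 to 0.10, and those of the 16 called genes 0.07 to 0.18. In Casp2, the caspase that Pidd1 activates, and in the executioner Casp6 the groups did not overlap, but the differences were small (0.11, SE 0.08, and −0.14, SE 0.10).

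Of the 2 mitochondrial factors, Diablo, which relieves inhibition of caspases, had 25.8, 22.6 and 21.5 CPM on TH against 29.3, 32.1 and 27.0 CPM on THCaP. It rose 1.26-fold (0.34, SE 0.11, edgeR adjusted p = 0.0451). Leaving out TH replicate 2 (edgeR adjusted p = 0.148) or 3 (0.169), or THCaP replicate 1 (0.134) or 2 (0.119), ended the call, and 40.9% of its exon bases overlap other genes, among them B3gnt4 on the other strand. Endog, a mitochondrial nuclease, overlapped between groups (0.29, SE 0.14, edgeR adjusted p = 0.167).

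Of the 3 inhibitor of apoptosis (IAP) genes, 2 fell (66.7%, against 12.0% of all tested genes) and 1 was not called. Birc3, which encodes cIAP2, had 163, 197 and 190.3 CPM on TH against 103, 88.0 and 105 CPM on THCaP. The lowest TH library was well above the highest THCaP library. Birc3 fell 1.86-fold (−0.90, SE 0.10, edgeR adjusted p = 0.00189). Birc2, which encodes cIAP1, had 95.0, 110 and 106 CPM on TH against 68.1, 56.9 and 74.8 CPM on THCaP and fell 1.55-fold (−0.63, SE 0.11, edgeR adjusted p = 0.00717). Both calls held without each library in turn. Both proteins are ubiquitin ligases of the TNF receptor complex, and their genes are neighbours on the minus strand of chromosome 9, Birc2 at 7818227 to 7837064 and Birc3 at 7848699 to 7873186, with 11634 bases and 0 protein-coding genes between them. Xiap, the IAP that blocks caspases directly, had 82.2, 105 and 102 CPM on TH against 96.1, 93.8 and 97.4 CPM on THCaP. Its THCaP values lay inside the TH range (−0.01, SE 0.10, edgeR adjusted p = 0.961), and its sign turned in 7 of 16 alternatives, with values up to 0.05. The ratio of Birc3 to Xiap in FPKM was 12.2, 11.6 and 11.5 on TH and 6.62, 5.80 and 6.63 on THCaP. It was formed after the values were seen and carries no test.

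In the death-receptor complex the brake Cflar fell, Fadd and Ripk1 rose and Tradd was not called. Of these 4 genes 25% fell and 50% rose, against 12.0% and 11.6% of all tested genes. The call of Ripk1, unlike that of Fadd, did not hold without each library in turn. In the further death-receptor list below, 0 of 16 tested genes rose and 6 fell. Cflar, whose product c-FLIP pairs with caspase-8 and holds it back, showed the largest change of the 41 genes. It had 252, 369 and 368 CPM on TH against 157, 117 and 175 CPM on THCaP. TH replicate 1 was the lowest TH library and still above every THCaP library. Cflar fell 2.20-fold (−1.14, SE 0.18, edgeR adjusted p = 0.00488), and the call held without each library in turn (log2 fold change −0.99 to −1.30). Cflar lies on chromosome 1 at 58711508 to 58758884, and its binding partner Casp8 begins 36489 bases further on, at 58795374 to 58847503, with 0 protein-coding genes between them. The ratio of Cflar to Casp8 in FPKM was 1.10, 1.82 and 1.94 on TH and 0.693, 0.471 and 0.745 on THCaP. The groups did not overlap, and the size of each ratio rests on the gene lengths behind the FPKM, while the contrast between groups does not. Group means of this ratio differed 2.55-fold, and it was formed after the values were seen.

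Fadd, the adaptor that carries caspase-8 to the receptor, was low, with 498 counts in all on TH and 884 on THCaP. It had 6.18, 5.26 and 5.98 CPM on TH against 9.28, 11.3 and 9.61 CPM on THCaP. The groups were apart, and Fadd rose 1.73-fold (0.79, SE 0.14, edgeR adjusted p = 0.00753), also without each library in turn. Fadd lies on chromosome 7 at 144577318 to 144582463, and 6.12% of its exon bases overlap a gene on the other strand. Ripk1, the kinase that scaffolds survival or death signalling at the TNF receptor, had 41.05, 39.0 and 40.6 CPM on TH against 50.9, 57.4 and 47.3 CPM on THCaP. It rose 1.29-fold (0.37, SE 0.09, edgeR adjusted p = 0.0223). Its call was lost without TH replicate 2 (edgeR adjusted p = 0.0905), TH replicate 3 (0.0806) or THCaP replicate 1 (0.0782). Tradd, the adaptor of TNF receptor 1, was not called (0.08, SE 0.10, edgeR adjusted p = 0.594).

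The necroptosis genes were not called. Ripk3, the kinase that licenses necroptosis, averaged 46.7 ± 2.16 CPM on TH against 53.7 ± 8.25 CPM on THCaP (n = 3 each; 0.20, SE 0.11, edgeR adjusted p = 0.213). Mlkl, the protein it activates to breach the membrane, averaged 11.4 ± 0.970 CPM on TH against 14.9 ± 3.83 CPM on THCaP (log2 fold change 0.38, SE 0.18, edgeR adjusted p = 0.144). In both THCaP replicate 3 lay inside the TH range, and without it both were called higher (edgeR adjusted p = 0.0261 and 0.0137). Each was called in 2 of 16 alternatives, both without that library. Leaving out other single libraries gave edgeR adjusted p up to 0.578 for Ripk3 and 0.462 for Mlkl. Bcl10, despite its name an adaptor of immune receptor signalling to NF-κB and not a BCL2 protein, had 80.8, 84.4 and 88.0 CPM on TH against 60.9, 58.7 and 68.0 CPM on THCaP. It fell 1.35-fold (−0.43, SE 0.08, edgeR adjusted p = 0.00964), a call lost without TH replicate 3 (0.0519) or THCaP replicate 1 (0.0554).

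An NF-κB consensus site, searched on both strands by its degenerate consensus, was found in 5 of 53 promoter windows (9.43%), against 4.51% of all 32851 and 5.13% of those of tested genes. It was present in 2 of the 10 genes with a window that fell, Bbc3 and Bcl10, in 0 of the 5 that rose, and in 3 of 22 not called (Bcl2l1, Bmf and Trp53). The windows of Birc3, Cflar and Bcl2a1b, known NF-κB targets, held no match, which says only that these letters are not in these 300 bases. The windows of the fallen genes with a match are shown, with the match in capitals. In Bbc3 (chr7:16309333-16309632, plus strand) 2 overlapping matches began at positions −137 and −136 from the start, and in Bcl10 (chr3:145924012-145924311, plus strand) the match began at −241.
Bbc3: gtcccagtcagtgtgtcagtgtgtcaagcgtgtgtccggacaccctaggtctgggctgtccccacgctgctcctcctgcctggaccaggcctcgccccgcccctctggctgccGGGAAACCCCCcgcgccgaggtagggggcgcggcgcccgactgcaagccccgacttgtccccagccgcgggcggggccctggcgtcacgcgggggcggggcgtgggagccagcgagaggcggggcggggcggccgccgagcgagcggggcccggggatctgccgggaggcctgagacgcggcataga
Bcl10: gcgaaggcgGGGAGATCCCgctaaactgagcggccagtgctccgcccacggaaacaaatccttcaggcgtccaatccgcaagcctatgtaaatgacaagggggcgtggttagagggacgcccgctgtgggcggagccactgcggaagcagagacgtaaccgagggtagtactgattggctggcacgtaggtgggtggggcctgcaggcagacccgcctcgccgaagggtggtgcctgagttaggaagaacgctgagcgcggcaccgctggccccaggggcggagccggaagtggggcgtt

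**Figure D4:**
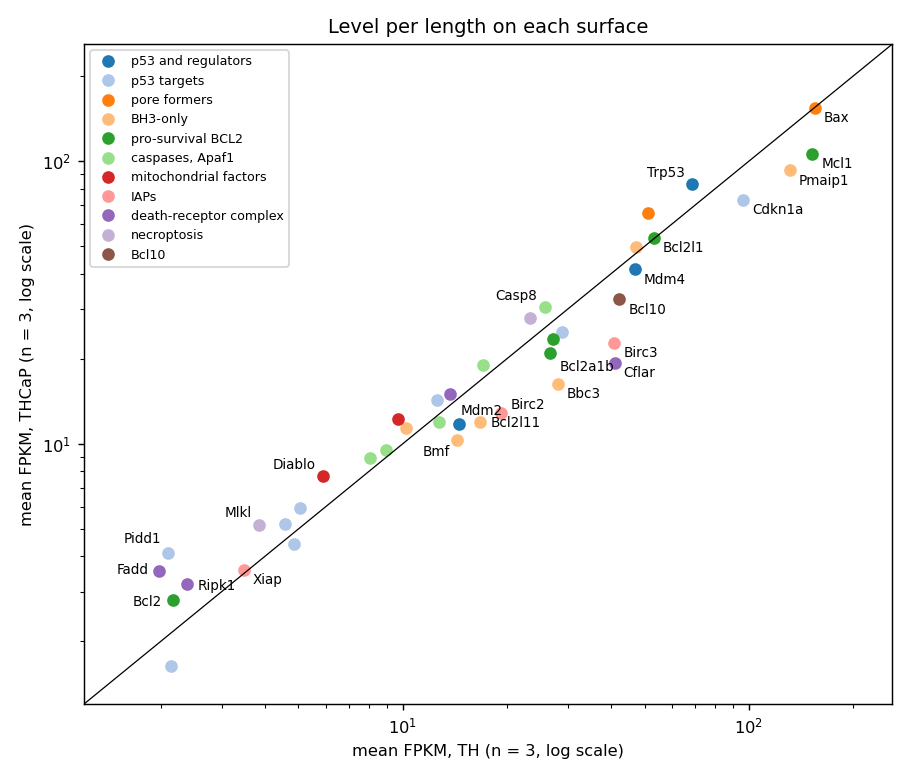
Mean FPKM on TH (x axis) and THCaP (y axis) of the 41 tested genes, both axes on a log scale, coloured by role, with the line of equal level. Bax, Mcl1 and Pmaip1 are the highest of the BCL2 family genes shown, Bax lies on the line, and Cflar and Birc3 lie below it at similar levels.

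Beyond these genes, further genes of the same pathways were listed by function, with earlier results of these data known. Their shares are therefore a description only. The list held 72 genes, of which 71 were in the table and 64 were tested. Of these, 10 rose (15.6%, against 11.6% of all tested genes) and 13 fell (20.3%, against 12.0%), with a median log2 fold change of −0.03. Among 30 tested further p53 targets, 5 rose (16.7%) and 7 fell (23.3%), with a median log2 fold change of −0.04. The kinase Plk2 fell the most of those with at least 5 CPM (−1.56, SE 0.15, edgeR adjusted p = 0.000873), and Polk, a translesion polymerase, and the peptide transporter Tap1 fell by 0.49 each on the log2 scale (edgeR adjusted p = 0.0348 and 0.006). The ferrireductase Steap3 (0.67, SE 0.16, edgeR adjusted p = 0.018), the mitotic Gtse1 (0.60, SE 0.10, edgeR adjusted p = 0.00599) and the DNA damage sensor Ddb2 (0.50, SE 0.13, edgeR adjusted p = 0.0271) rose. Of 20 further tested apoptosis genes, 5 rose (25%) and 1 fell (5%), with a median log2 fold change of 0.10. Those that rose included Dffa, the inhibitor of the caspase-activated nuclease (0.58, SE 0.11, edgeR adjusted p = 0.00879), Birc5, the IAP of dividing cells (0.58, SE 0.10, edgeR adjusted p = 0.00717), and Aifm1 (0.34, SE 0.11, edgeR adjusted p = 0.0476). The co-chaperone Bag3 fell (−0.32, SE 0.07, edgeR adjusted p = 0.0173).

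The further list of death-receptor signalling, with 16 tested genes, carried the same limit. In it 6 fell (37.5%, against 12.0% of all tested genes) and 10 were not called (median log2 fold change −0.19). They included the NF-κB feedback inhibitor Tnfaip3, which encodes A20 (−0.76, SE 0.15, edgeR adjusted p = 0.00964), the kinase Ripk2 (−0.57, SE 0.08, edgeR adjusted p = 0.00454), the cytokine Tnf (−0.47, SE 0.10, edgeR adjusted p = 0.0118) and Rnf31, a subunit of the linear ubiquitin ligase (−0.33, SE 0.10, edgeR adjusted p = 0.0446). Fas, the death receptor that recruits Fadd and a p53 target counted in both lists, and Zbp1, a nucleic acid sensor that engages Ripk3, were below 5 CPM and were named after their values were seen. Fas fell from 2.03 ± 0.740 CPM on TH to 0.320 ± 0.175 CPM on THCaP (n = 3 each; −2.65, SE 0.43, edgeR adjusted p = 0.00582), and Zbp1 from 0.807 ± 0.150 CPM to 0.238 ± 0.118 CPM (−1.74, SE 0.42, edgeR adjusted p = 0.0196). In bulk RNA, fewer cells carrying a transcript and less of it per cell cannot be told apart.

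The calls depended on single libraries. Of the 16 called genes, 9 kept the call without each library in turn (Cflar, Birc3, Birc2, Bbc3, Mcl1, Pmaip1, Cdkn1a, Pidd1 and Fadd), and the same number kept it in all 16 alternatives. The 5 genes that rose and 11 that fell became 5 and 10 when TH replicate 1 was left out, 2 and 8 when TH replicate 2 was, and 2 and 7 when TH replicate 3 or THCaP replicate 1 was. They became 3 and 11 when THCaP replicate 2 was left out and 8 and 14 when THCaP replicate 3 was. In 13 of the 16 called genes THCaP replicate 3 was the THCaP library nearest to the TH mean, and over all 2709 called genes this was so in 82.5%. Unfiltered log2(FPKM + 1) values lost the calls of Bcl2, Diablo, Ripk1, Bcl2l11 and Bcl2a1b. Without TH replicate 1 and THCaP replicate 3 together, 10 genes were called higher and 15 lower. The background moved with these counts, from 2.51% of tested genes called higher and 4.01% called lower without THCaP replicate 1 to 18.5% and 17.4% without THCaP replicate 3.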

How the data were processed

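RNA-seq of 6 libraries, 3 per surface, was deposited as counts and FPKM per gene symbol. Per the submitters' processing notes, the authors used fastp, HISAT2 and HTSeq with mm10. Their versions, annotation and strand setting: not given in the sources used here. The deposited counts are whole reads per gene, not normalised. The deposited FPKM were made by the authors from these counts: implied gene lengths were whole within 0.01 bases in 100% of 11923 genes.

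The test was edgeR 4.0.16 under R 4.3.3 (filterByExpr, minimum count 10 and total 15, TMM factors, robust quasi-likelihood F test, Benjamini-Hochberg over 11480 genes, calls at adjusted p under 0.05). SE is the absolute log2 fold change over the square root of F. CPM are TMM-scaled. For a single value the smallest two-sided exact permutation p with 3 against 3 is 0.1. The genes, their roles, the further lists and the naming rule were chosen with earlier results of these data known. By that rule every listed gene is accounted for, with statistics for each called one, and further genes are named if called at 5 CPM or more, up to 6 per list. Some genes that this rule names are not reported here. Gene positions came from GENCODE vM21 (GRCm38, the assembly of mm10) and promoter windows from RefSeq (GRCm38.p6).

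Alternatives were DESeq2 1.42.0, RLE factors, library totals, no filter, 5 CPM in 3 libraries, a replicate block, limma 3.58.1 on log2(FPKM + 1) and log2(FPKM + 0.1) (mean FPKM 1 or more, and the first also unfiltered), and each library left out. Leaving out 2 libraries and summing Bcl2a1 copies were added after seeing the data. On simulated counts of 11480 genes the edgeR fit recovered 93% of 100 genes changed by 1 and 61% of 100 changed by 0.5 on the log2 scale. It made 10 false calls. The simulation gave every gene the same dispersion, the median of the fit, and held no library standing apart. These shares therefore do not give the power in the real data. Within groups, chi-square per degree of freedom between libraries was 3.84 to 48.4, above counting noise, so none was counted as the same library deposited again. This does not tell whether libraries share a culture.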

Additional observations from a re-analysis of the deposited data

How the results depend on the processing

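No called gene of the list changed direction in any of the 16 alternatives, and 12 of the 25 not called were called in at least 1. The matching share over all tested genes was not computed. Calls over all genes ranged from 756 to 5207 between these alternatives. Genes that were not called changed sign as follows. Leaving out single libraries took Bax from -0.116 to 0.039, Bad from -0.056 to 0.23, Bid from -0.074 to 0.115, Bcl2l1 from -0.098 to 0.044 and Xiap from -0.113 to 0.053 (log2 fold change). Library totals gave 0.017 for Bcl2l1 and 0.045 for Xiap, log2(FPKM + 1) gave 0.021 and 0.039 with or without a filter, and log2(FPKM + 0.1) gave 0.022 and 0.051. Without TH replicate 1 and THCaP replicate 3 together, a setting chosen after seeing the data, Bax stood at 0.081 and Bcl2l1 at 0.048.

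Without each library in turn, listed genes called higher ranged from 2 to 8 and lower from 7 to 14, further pathway genes from 3 to 13 and from 6 to 15, and all genes from 291 to 2145 and from 465 to 2020. Without both libraries named above, the higher counts were 10, 16 and 2625 and the lower counts for all genes 2582, against 1333 and 1376 with all 6. Unfiltered log2(FPKM + 1) called 2 listed genes and 729 of all genes higher and 530 of all genes lower. All 3 FPKM settings called 8 further genes lower in place of 13. The cause of these shifts was not tested.

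Replicate numbers did not pair the libraries: deviations of same-numbered libraries correlated at -0.02, -0.07 and 0.06. With the replicate number as a block, 5 listed genes were higher and 12 lower, with 1424 and 1457 over all genes. Bmf (adjusted p = 0.00547) and Bak1 (0.0409) were called there and Bcl2 (0.0691) was not. Depth limits Perp and genes of a few CPM.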
